A study of Mus musculus with 10 samples.

Results

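Rad23b-null mouse embryonic stem cells (genotype Rad23b-/-) were compared with wild-type cells of the same JM8.N4 line, a feeder-independent line of C57BL/6N origin, by poly-A RNA sequencing. Each genotype had 1 library, so no value below has a replicate error and no difference was tested. All rows with a gene name in the authors' table of this pair were taken, 36586 of 36658. They held 22200 protein-coding genes, 5157 short RNAs, 8750 long noncoding RNAs and pseudogenes, and 479 immunoglobulin segments. The series has 10 libraries in all. Libraries of Rad23b-/- cells in which Xpc was also knocked down, Rad23b-/-Xpc KD1 and Rad23b-/-Xpc KD2 (independent shRNAs, called knockdown 1 and knockdown 2 here), are quoted for orientation. Their ratios share the wild-type library with the Rad23b-null ratio and are no independent repeat of it. RAD23B ChIP-seq regions of wild-type D3 stem cells are used for gene starts. How the Rad23b alleles were made, and whether the null line is a single clone, is not given in the sources used here.

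RAD23B pairs a ubiquitin-like domain that docks on the proteasome with ubiquitin-associated domains, and it carries ubiquitinated proteins to degradation. It also binds XPC, with the centrin CETN2, in the complex that finds distorted DNA at the start of global genome nucleotide excision repair. In embryonic stem cells the XPC complex was described as a coactivator that works with OCT4 and SOX2. The comparison asks which RNAs differ in cells that lack Rad23b.

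The Rad23b transcript (chr4:55362914-55405109 in mm9, the build of all coordinates here unless another is named) stood at 43.9 RPKM in Rad23b-null cells, at 35.8 and 52.5 RPKM in the knockdowns and at 229 in wild-type cells. RPKM, reads scaled by transcript length and library size, is comparable between genes of different length. The null library thus kept 19.1% of the wild-type level, and the tables do not show which exons those reads cover. Xpc, the damage sensor of the complex, was nearly equal at 8.34 RPKM in Rad23b-null and 8.73 RPKM in wild-type cells, while it read 0.915 and 0.895 RPKM in the knockdowns. Cetn2 had 30.4 RPKM in null and 44.2 RPKM in wild-type cells. The 6 markers of embryonic stem cells summed to 3147 RPKM in the null library and 4723 RPKM in the wild-type one, and the lowest of them stood at 47.0 RPKM in null and 44.6 RPKM in wild-type cells. Nanog, 1 of the 6, had 197 RPKM in null and 512 RPKM in wild-type cells. Marker sets of trophectoderm, primitive endoderm, neural ectoderm, mesoderm and fibroblasts each summed to at most 17.0 RPKM in both, with the 5 trophectoderm markers at 15.4 RPKM in null and 17.0 RPKM in wild-type cells, most of it Eomes (9.36 and 14.2 RPKM). The wider trophectoderm list described further on, which holds Krt19, summed to 213 RPKM in null and 158 RPKM in wild-type cells. The fibroblast sum was 2.38 RPKM in null and 1.65 RPKM in wild-type cells. Read totals are unknown, and the step between the lowest values put the null library at 1.29 times the wild-type depth.

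Most protein-coding genes lay close to equality, with a drift that depended on level. Change was taken as the log2 ratio of RPKM + 1, null over wild type, which understates the change of low genes, among the 12331 protein-coding genes with at least 1 RPKM in either library. A difference of 2-fold or more was counted on this scale, so that genes whose RPKM alone differ by 2-fold can fall short of it. On that count 362 genes were higher (2.94%) and 418 lower (3.39%) in Rad23b-null cells, and the median ratio was -0.16. After centring on that median the counts were 531 and 245, so which direction holds more genes hangs on the scaling. For 68% of genes the ratio was within 0.50 of 0. The 2 knockdown libraries differed from each other by no more than 0.20 for 68% of genes and by 2-fold or more for 56 genes (0.454%). The level limit looks at the null and wild-type libraries alone. It therefore favours genes that differ between those over genes that differ between the knockdowns. With at least 1 RPKM in both the null and wild-type libraries the 68% values were 0.47 and 0.20. The authors' deposited table held a p-value under 0.05 for 149 of the 362 higher and 144 of the 418 lower genes, and a p-value of at least 0.5 for 59 and 74 of them. Genes of low level tended to read higher in the null library and genes of high level lower. Below a mean of 2 RPKM the median ratio was 0.24, with 105 genes at least 2-fold higher and 28 lower. At 2 to 5 RPKM it was 0.07, at 5 to 20 RPKM -0.12, at 20 to 100 RPKM -0.29 and at 100 to 1000 RPKM -0.44. Above 1000 RPKM it was -0.40, with 0 genes higher and 9 lower. Of the 12331 genes, 644 passed the level limit through the null library alone and 257 through the wild-type library alone, so direction and low level are tied among them.

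**Figure D1:**
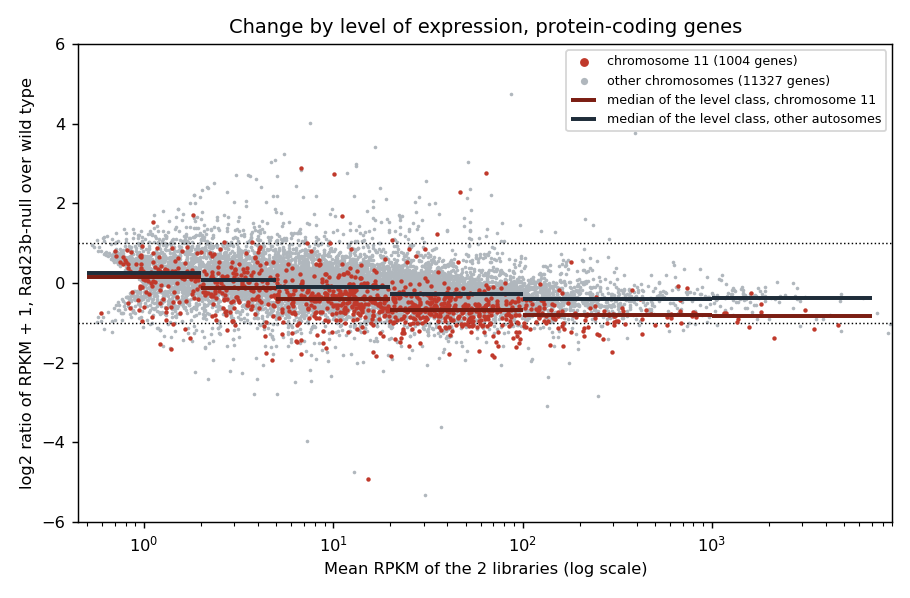
Each point is a protein-coding gene with at least 1 RPKM in either library; the x axis is its mean RPKM (log scale) and the y axis the log2 ratio of RPKM + 1, Rad23b-null over wild type. Horizontal bars are medians of level classes and dotted lines mark 2-fold; the medians slope from above 0 at low level to below 0 at high level, and chromosome 11 (red) lies under the other autosomes in every class.

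Genes of chromosome 11 read lower in Rad23b-null cells as a block. The 1004 protein-coding genes of this chromosome over the level limit had a median ratio of -0.52, against -0.13 for 10863 genes of the other autosomes, whose medians lay between -0.23 (chromosome 13) and -0.04 (chromosome 8). The difference of -0.38 corresponds to a ratio of 0.767. On chromosome 11, 13 genes (1.29%) were higher by 2-fold or more and 123 (12.3%) lower. Outside it the counts were 349 (3.08%) and 295 (2.60%) of 11327. Chromosome 11 therefore held 123 of the 418 lower genes. Of its genes, 74.9% lay below the median of the other autosomes. The shift ran along the whole chromosome, since all 13 windows of 10 Mb had medians between -0.31 and -0.64. It also held in every class of expression, where the median of chromosome 11 minus that of the other autosomes was -0.11 under 2 RPKM, -0.31 at 5 to 20 RPKM, -0.40 at 20 to 100 RPKM and -0.46 above 1000 RPKM. Chromosome 11 carried 9.70% of all protein-coding RPKM in Rad23b-null cells, with 9.56% in knockdown 1 and 9.51% in the other knockdown, against 12.6% in wild-type cells. The 3 Rad23b-null libraries were therefore alike and the wild-type library stood apart. Set directly against the knockdowns, which leaves wild-type RPKM out of the ratio, the null library had chromosome 11 medians of 0.041 over knockdown 1 and 0.020 over knockdown 2. The other autosomes had 0.021 and 0.0037. Each library was scaled in its own pair with the wild type, so these small medians are to be read only beside each other. With no second wild-type library, a property of the genotype and a property of this wild-type culture cannot be told apart, and the same holds for each ratio below.

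**Figure D2:**
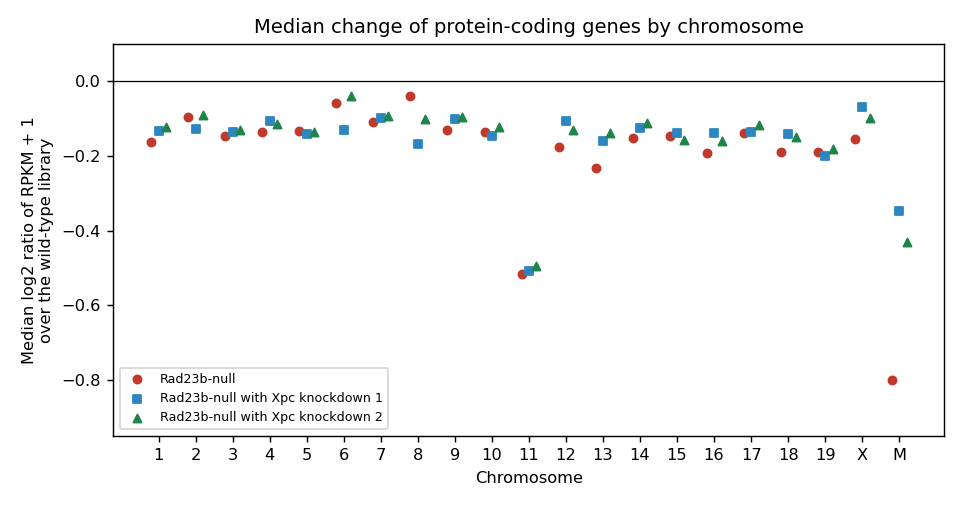
Points are median log2 ratios of RPKM + 1 over the wild-type library for the protein-coding genes of each chromosome, for Rad23b-null cells and both knockdowns in them; all 3 ratios share the wild-type library. Chromosome 11 lies near -0.5 in all 3 while the other autosomes lie between -0.23 and -0.04, and the mitochondrial genes (M) reach -0.80 in Rad23b-null cells.

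Among the chromosome 11 genes with listed coordinates of their own and at least 20 RPKM in either library, 3 of 283 were higher by 2-fold or more and 58 lower. Krt19, a keratin of simple epithelia and trophectoderm (chr11:100002123-100009979), stood out on the high side at 78.7 RPKM in Rad23b-null cells, 69.5 and 62.7 in the knockdowns and 15.2 in wild-type cells (log2 2.30). Ptrf, whose product cavin-1 coats caveolae, had 49.7 RPKM in null and 20.8 RPKM in wild-type cells (1.22). Stc2, a secreted glycoprotein induced by stress, had 28.2 and 12.8 RPKM in null and wild-type cells (1.09). P4ha2, a collagen prolyl hydroxylase, Rhbdf1, an inactive rhomboid, and the integrin gene Itga3 came next with ratios of 0.86, 0.60 and 0.54, under 2-fold. At the low end Anxa6, an annexin that binds membranes with calcium (chr11:54792609-54846947), had 30.0 RPKM in null cells, 40.5 and 39.3 in the knockdowns and 108 in wild-type cells (-1.82). Nxn, encoding the redox protein nucleoredoxin, had 17.7 RPKM in null and 63.7 RPKM in wild-type cells (-1.79). The iron-sulphur protein gene Cisd3 had 138 and 459 RPKM in null and wild-type cells (-1.73). Gm9631, Hn1 and Ccdc43 followed with ratios of -1.70, -1.61 and -1.58. All 6 of these low genes were also low in both knockdown libraries, at ratios between -1.12 and -1.59.

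Outside chromosome 11, 2903 protein-coding genes had coordinates of their own and at least 20 RPKM in either library, 56 of them at least 2-fold higher and 101 lower in the null. The 10 highest fell into different patterns over the 4 libraries. Id1, an inhibitor of differentiation factors downstream of BMP signals (chr2:152561986-152563146), had 84.0 RPKM in Rad23b-null cells, 67.2 and 64.2 in the knockdowns and 18.3 in wild-type cells (log2 2.14). Taf7l, a relative of the TFIID subunit gene Taf7 that is used in testis (chrX:130994656-131011029), had 24.1 RPKM in the null, 13.7 and 15.7 in the knockdowns and 2.28 in wild-type cells (2.93). Plaur, the urokinase receptor gene, had 47.0, 36.3 and 29.0 RPKM in null, knockdown 1 and knockdown 2 cells and 9.78 in wild-type cells (2.15). In these genes, and in Tgm1 (a transglutaminase; 26.7 RPKM in null and 5.62 in wild-type cells), Sept1 (a septin; 112 and 23.6) and the uncharacterised AU015836 (89.0 and 16.4), all 3 Rad23b-null libraries were above the wild-type one. Prmt2, an arginine methyltransferase gene, was high in the null library alone, at 168 RPKM against 6.33, 5.35 and 5.28 RPKM in knockdown 1, knockdown 2 and wild-type cells. Trps1, a GATA-type repressor, likewise had 24.3 RPKM in null cells and between 1.88 and 2.37 RPKM in the other libraries, and Cryab, a small heat shock protein gene, 21.7 RPKM in null cells and 2.79 to 4.00 RPKM elsewhere. Vps8, a subunit of an endosomal tethering complex, had 92.9 RPKM in the null and 89.4 in knockdown 2, but 8.47 in knockdown 1 and 10.3 in wild-type cells. In the authors' deposited table the p-values were 0.743 for Prmt2, 0.738 for Trps1, 0.552 for Cryab and 0.753 for Vps8, while those of Taf7l, Plaur, Id1 and Tgm1 were 0.

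At the low end of the same pool stood Rad23b itself (-2.36) and 9 other genes. Trh, the precursor gene of thyrotropin-releasing hormone (chr6:92192054-92194644), had 27.6 RPKM in the null, 25.9 in knockdown 1, 67.9 in knockdown 2 and 242 in wild-type cells (log2 -3.09). Mmp17, a membrane-anchored metalloproteinase gene, had 4.73 RPKM in the null and 5.76 in knockdown 1, but 57.5 in knockdown 2 and 69.5 in wild-type cells (-3.62). The libraries thus split differently for this pair of genes. Ifitm1, an interferon-induced membrane protein gene that stem cells and germ cells express, had 69.4 RPKM in the null, 115 and 100.1 in the knockdowns and 281 in wild-type cells. Klf4, a pluripotency factor (chr4:55540012-55545347), had 20.1, 30.1, 29.2 and 78.7 RPKM in null, knockdown 1, knockdown 2 and wild-type cells (-1.92). Klf4 is the nearest protein-coding neighbour of Rad23b, 135 kb away on the listed coordinates. The only other within 1000 kb, the zinc finger gene Zfp462 at 266 kb, had 13.3 RPKM in null and 18.4 RPKM in wild-type cells (-0.44). Rragb, a Rag GTPase of amino acid sensing, had 4.75 RPKM in null and 22.03 RPKM in wild-type cells. Rpl39l, a ribosomal protein paralogue best known from testis, had 5.19 and 23.6 RPKM in null and wild-type cells (-1.99), and Plac8, named for its placental expression, 8.05 and 32.9 RPKM (-1.90). The gene model Gm9805 had 29.3 and 125 RPKM (-2.05), and Gm3625 was listed at 0 in the null and at 25.8 RPKM in wild-type cells. Gm3625 read 10.3 and 10.2 RPKM in the knockdowns.

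**Figure D3:**
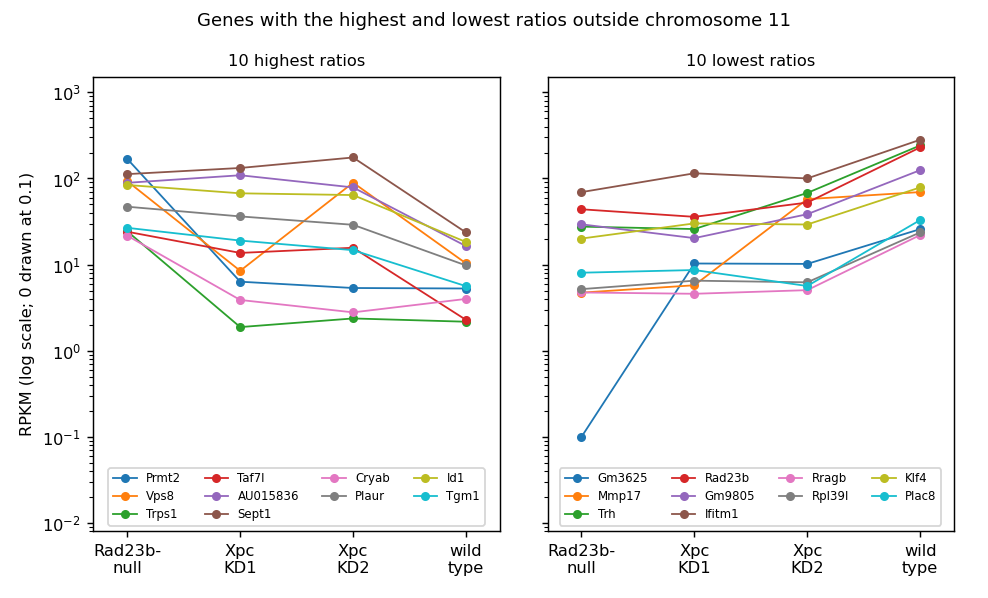
RPKM (log scale) of the 10 protein-coding genes with the highest and the 10 with the lowest Rad23b-null over wild-type ratio outside chromosome 11, in each of the 4 libraries, with lines joining the values of 1 gene. Prmt2, Trps1 and Cryab are high in the Rad23b-null library alone, Vps8 and Mmp17 divide the knockdowns, and most others have the wild-type library apart from the rest.

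Factors of the naive state, the ground state of mouse stem cells held by LIF and other signals, had the lowest median of the 38 gene lists. All 15 listed genes were over the limit, 9 were at least 2-fold lower (beside 3.39% of all protein-coding genes) and none was 2-fold higher; the median was -1.37, against -0.16 for all protein-coding genes. Relative to genes of like level outside chromosome 11, the median was -0.97. In bulk RNA, fewer cells of a type and less RNA per cell cannot be told apart. Klf4 and the pair Prdm14 (a repressor of the primed state; 5.07 RPKM in null, 6.44 and 7.01 in the knockdowns, 19.8 in wild-type cells) and Tfcp2l1 (44.7, 62.0, 60.8 and 177 RPKM in the same order) were the lowest. Tbx3, a T-box factor, had 11.9 RPKM in null and 40.1 RPKM in wild-type cells; Tbx3 and Tfcp2l1 share coordinates with other genes. Klf2 (45.2 and 95.9 RPKM, log2 -1.07) and Tcl1 (23.2 and 66.0 RPKM, -1.47) were lower as well. So were Esrrb (51.5 and 162 RPKM, -1.63), Dppa3 (31.3 and 83.8 RPKM, -1.39) and Nanog (-1.37). Klf5, a Krüppel-like factor of the same network, ran the other way at 84.1 RPKM in null and 48.8 RPKM in wild-type cells (0.77). The 15 genes of the wider pluripotent state had a median of -0.27, or -0.01 relative to genes of like level, with none 2-fold lower. Tdgf1, the Nodal coreceptor gene, was nearly level (0.08) and so were L1td1 (-0.05) and Dppa4 (-0.04). In the primed-state list 0 of 11 genes were 2-fold higher (beside 2.94% of all protein-coding genes). Lefty1, a Nodal inhibitor, was 2-fold lower at 45.2 RPKM in null and 101.1 RPKM in wild-type cells. The primed-state list had a median of 0.16, with 7 genes above 0 and 4 below. Otx2, Pou3f1 and Dnmt3b, which rise when cells leave the naive state, had ratios of 0.08, 0.69 and 0.69. Lef1, Lefty2 and Zic2 ran the other way at -0.69, -0.56 and -0.34. Fgf5, under the level limit, had 0.342 RPKM in null and 0.336 RPKM in wild-type cells. Among 10 genes of the LIF and STAT3 pathway none differed 2-fold (median -0.17). Stat3, on chromosome 11 and with shared coordinates, had 18.4 RPKM in null and 30.2 RPKM in wild-type cells, while its target Socs3 had 62.2 and 68.4 RPKM.

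**Figure D4:**
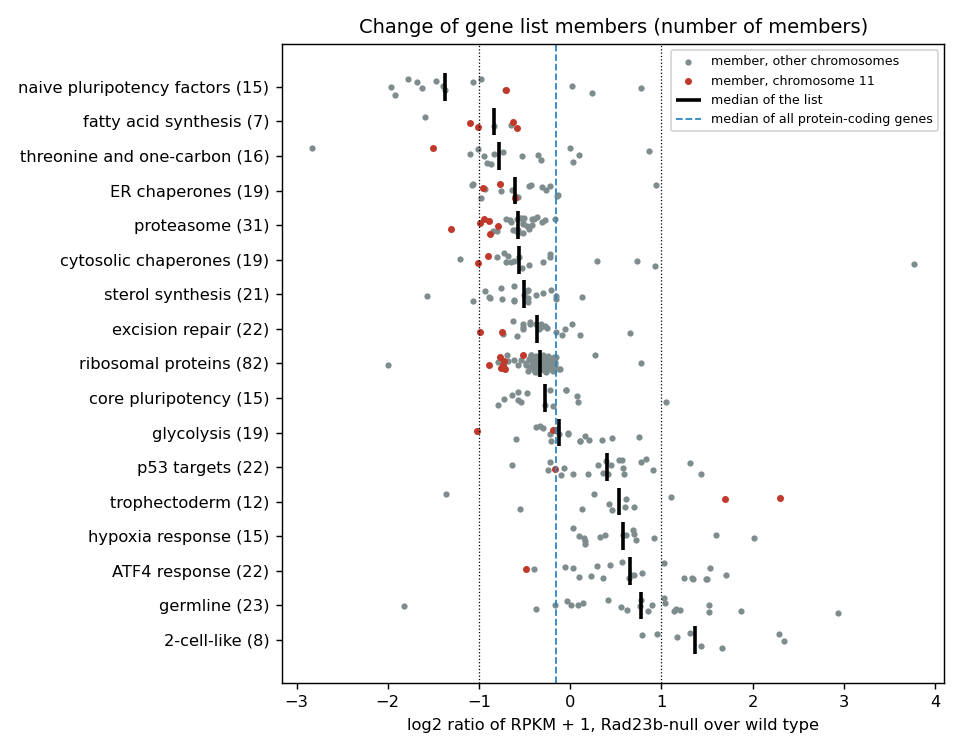
Each point is a gene of the list named on the left with at least 1 RPKM in either library, placed by its log2 ratio of RPKM + 1, Rad23b-null over wild type (red, chromosome 11); bars are list medians, the dashed line is the median of all protein-coding genes and dotted lines mark 2-fold. Naive factors lie lowest with a median of -1.37, and the ATF4 response and germline lists have medians of 0.65 and 0.78; the 8 genes drawn for the 2-cell-like list all passed the level limit through the null library alone.

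Genes of early embryos and germ cells were examined next. The 2-cell-like genes, which mark cleavage embryos and a rare fluctuating state of stem cells, had 12 members in the table, of which 8 were over the limit, all through the null library alone, so their direction follows from that filter. Over all 12 the median was 1.06. Zscan4f, a telomere-related SCAN domain gene, had 5.22 RPKM in Rad23b-null cells, 1.98 and 4.23 in the knockdowns and 0.274 in wild-type cells (2.29). Zscan4c had 2.75, 1.44, 2.82 and 0.183 RPKM in the same order, and Tcstv3 had 4.06 RPKM in the null and was listed at 0 in wild-type cells. Members of the Zscan4 family are nearly identical, and the division of reads they share is not stated. Germline genes numbered 23 over the limit, 9 at least 2-fold higher (beside 2.94% of all protein-coding genes) and 1 lower, with a median of 0.78. Of the 23, 3 passed the level limit through the null library alone (Tdrd1, Sycp2 and Tex101, each under 2-fold). Stk31, a testis kinase-like gene with shared coordinates, had 15.99 RPKM in the null and 3.65 in wild-type cells (1.87). Mael, of the piRNA pathway that silences transposons, had 27.0 RPKM in null and 8.76 RPKM in wild-type cells (1.52), and Slc25a31, a germ cell ADP/ATP carrier, 8.57 and 2.34 RPKM (1.52). Ddx4, the germ cell helicase VASA, had 40.8 and 17.9 RPKM in null and wild-type cells, and Sycp1, of the synaptonemal complex, 10.2 and 4.02 RPKM. Dazl, a germ cell RNA-binding protein, was near level at 28.5 and 32.1 RPKM, and Tuba3a, a testis tubulin, was lower at 4.42 RPKM in null and 18.1 RPKM in wild-type cells (-1.82). Trophectoderm genes were mixed: of 12, 3 were higher (Krt19, Hand1 and Ascl2) and 1 lower, with a median of 0.53. All protein-coding genes had 2.94% higher and 3.39% lower. Of the 12, 2 passed the level limit through the null library alone, Hand1 among them, so their direction follows from that filter. Hand1, on chromosome 11, had 3.31 RPKM in the null, 3.48 and 1.70 in the knockdowns and 0.329 in wild-type cells, while Tfap2c had 22.4 and 59.2 RPKM in null and wild-type cells (-1.36). Few genes of other lineages were expressed. None of 9 primitive endoderm, 3 mesoderm or 2 fibroblast genes reached 2-fold on RPKM + 1, though the RPKM alone differed by more in some, with Gata4 at 3.02 RPKM in null and 1.26 RPKM in wild-type cells, Gsc at 0.140 and 1.21, and Twist1 at 4.41 and 1.75. Of 5 neural genes, Neurog1 was lower at 0.382 and 4.24 RPKM (-1.92), and it passed the level limit through the wild-type library alone.

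Genes driven by ATF4, the factor of the integrated stress response to amino acid shortage and unfolded protein, lay mostly above 0. Of 22 over the limit 19 had a ratio above 0, 8 were at least 2-fold higher (beside 2.94% of all protein-coding genes) and none was 2-fold lower, with a median of 0.65, or 0.82 relative to genes of like level. Of the 22, only Cebpb, under 2-fold, passed the level limit through the null library alone. Atf4 itself had 344 RPKM in Rad23b-null cells, 335 and 330 in the knockdowns and 220 in wild-type cells (0.64). Nupr1, a stress-induced chromatin protein gene, had 34.7, 27.4 and 34.2 RPKM in null, knockdown 1 and knockdown 2 cells and 9.90 in wild-type cells (1.71). Ddit3, which encodes CHOP and shares coordinates, had 29.6 RPKM in null and 9.58 RPKM in wild-type cells (1.53). Cth, the enzyme that makes cysteine from cystathionine, had 116 RPKM in the null, 159 and 142 in the knockdowns and 40.3 in wild-type cells. Vldlr, a lipoprotein receptor, had 11.5 and 3.46 RPKM in null and wild-type cells (1.49), Chac1, which degrades glutathione, 40.4 and 15.3 RPKM (1.35), and Trib3, a pseudokinase, 57.8 and 22.3 RPKM (1.34). Slc6a9, a glycine transporter on shared coordinates, and Atf3, a stress-induced repressor, had ratios of 1.25 and 1.03. Enzymes of serine and asparagine synthesis were nearer to level: Phgdh had 146 RPKM in null and 143 RPKM in wild-type cells, Psat1 326 and 304 RPKM, and Asns 333 and 439 RPKM (-0.40). Their levels were high in both libraries.

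The promoters of these genes are shown because the higher members are known targets of a common factor. The core of the ATF4 element was searched on both strands as TGATGNAA (reverse TTNCATCA) in RefSeq promoters, 250 bases before to 50 after each start, build GRCm38.p6. It was present in 3.97% of 32851 promoters. Counted in the same way, 8 of 25 promoters of list genes held it (32%). The list was drawn up as genes driven by ATF4, so this share is no separate result. Counted by gene, 8 of the 20 list genes with a promoter entry held the element, among them 5 of the 8 genes that were at least 2-fold higher. These 5 are printed first and Asns, which held the letters but was not higher, last. Capitals mark the match.
Nupr1 (chr7:126625421-126625720, minus strand): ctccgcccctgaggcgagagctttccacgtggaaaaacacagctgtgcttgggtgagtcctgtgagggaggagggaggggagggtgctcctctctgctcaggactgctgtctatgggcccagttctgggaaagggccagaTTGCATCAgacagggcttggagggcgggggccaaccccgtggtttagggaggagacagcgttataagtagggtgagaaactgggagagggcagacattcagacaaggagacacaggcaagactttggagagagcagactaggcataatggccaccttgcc
Vldlr (chr19:27216770-27217069, plus strand): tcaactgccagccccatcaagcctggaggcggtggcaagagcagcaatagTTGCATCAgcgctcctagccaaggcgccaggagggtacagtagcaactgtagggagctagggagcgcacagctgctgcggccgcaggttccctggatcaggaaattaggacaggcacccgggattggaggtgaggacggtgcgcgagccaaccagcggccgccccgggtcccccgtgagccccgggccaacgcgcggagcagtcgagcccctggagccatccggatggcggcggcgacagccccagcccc
Chac1 (chr2:119350992-119351291, plus strand): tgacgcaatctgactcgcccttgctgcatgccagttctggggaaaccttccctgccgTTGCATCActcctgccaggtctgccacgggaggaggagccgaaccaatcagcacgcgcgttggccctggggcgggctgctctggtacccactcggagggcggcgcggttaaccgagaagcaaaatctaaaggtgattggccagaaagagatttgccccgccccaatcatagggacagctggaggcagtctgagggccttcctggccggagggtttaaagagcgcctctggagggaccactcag
Trib3 (chr2:152344011-152344310, minus strand): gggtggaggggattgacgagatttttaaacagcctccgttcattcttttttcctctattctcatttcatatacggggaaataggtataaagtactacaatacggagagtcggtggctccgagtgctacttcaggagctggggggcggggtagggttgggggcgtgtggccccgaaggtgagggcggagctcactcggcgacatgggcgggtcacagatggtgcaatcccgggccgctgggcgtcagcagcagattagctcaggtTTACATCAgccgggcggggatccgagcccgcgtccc
Atf3 (chr1:191183284-191183583, minus strand): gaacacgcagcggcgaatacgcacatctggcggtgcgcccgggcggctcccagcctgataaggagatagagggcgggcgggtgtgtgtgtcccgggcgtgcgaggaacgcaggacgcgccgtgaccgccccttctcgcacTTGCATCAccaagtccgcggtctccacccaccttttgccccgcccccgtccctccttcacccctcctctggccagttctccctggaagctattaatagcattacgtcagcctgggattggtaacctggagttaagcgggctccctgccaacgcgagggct
Asns (chr6:7693160-7693459, minus strand): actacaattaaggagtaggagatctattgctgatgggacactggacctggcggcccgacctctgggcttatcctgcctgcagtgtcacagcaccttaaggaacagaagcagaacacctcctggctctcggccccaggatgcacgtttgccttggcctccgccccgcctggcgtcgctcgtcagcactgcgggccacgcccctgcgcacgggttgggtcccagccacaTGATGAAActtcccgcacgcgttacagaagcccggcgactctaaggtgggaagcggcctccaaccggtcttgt
The match began 110 bases before the start in Nupr1 and Atf3, 193 before it in Chac1, 200 before it in Vldlr and 14 after it in Trib3, and 23 bases before it in Asns. The other list genes with the element were Slc7a11 and Pycr1, at ratios of 0.05 and -0.48. A match describes the letters and not binding.

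In other stress lists fewer genes passed 2-fold. Of 22 p53 target genes 16 had a ratio above 0, 2 were at least 2-fold higher (beside 2.94% of all protein-coding genes) and none was 2-fold lower, with a median of 0.40, or 0.63 relative to genes of like level. Ddit4l, an inhibitor of mTOR signalling, had 20.5 RPKM in Rad23b-null cells, 12.9 and 11.7 in the knockdowns and 6.96 in wild-type cells (1.43), and Perp, a desmosomal p53 target, had 75.3, 73.9, 50.5 and 29.7 RPKM in the same order (1.31). Mdm2, the p53 ligase, was closer to level at 82.6 RPKM in null and 64.3 RPKM in wild-type cells. In the hypoxia list all 15 genes lay above the median of all protein-coding genes, 2 of them at least 2-fold higher. The list's median was 0.58, or 0.79 relative to genes of like level. Car9, under 2-fold, passed the level limit through the null library alone. Adm, the peptide hormone adrenomedullin, had 55.9 RPKM in the null, 50.8 and 75.9 in the knockdowns and 13.1 in wild-type cells (2.02). Ddit4, an mTOR inhibitor induced by hypoxia and stress, had 323, 283, 284 and 106 RPKM in the same order (1.60). Egln3 and Vegfa had ratios of 0.58 and 0.61. The 19 glycolytic enzymes had a median of -0.12, near that of all protein-coding genes, but 0.25 relative to genes of like level. Their lone 2-fold difference was Aldoc on chromosome 11, at 38.8 RPKM in null and 79.9 RPKM in wild-type cells.

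Genes of threonine and one-carbon metabolism, on which mouse stem cells depend for S-adenosylmethionine and nucleotides, lay mostly below 0. Of 16, 13 had a ratio below 0, 4 were at least 2-fold lower (beside 3.39% of all protein-coding genes) and none was 2-fold higher, with a median of -0.78, or -0.38 relative to genes of like level. Tdh, threonine dehydrogenase, had 60.6 RPKM in Rad23b-null cells, 110 and 68.9 in the knockdowns and 437 in wild-type cells (-2.83), on shared coordinates. Shmt1, a serine hydroxymethyltransferase on chromosome 11, had 49.1 and 142 RPKM in null and wild-type cells (-1.51). Tyms, thymidylate synthase, had 48.4 and 105 RPKM (-1.10), and Mat2a, which makes S-adenosylmethionine, 78.4 and 160 RPKM (-1.02). Gcat, the enzyme after Tdh in threonine breakdown, and Gldc of the glycine cleavage system had ratios of -0.95 and -0.91, just inside 2-fold. Shmt1, Tyms and Gldc also share coordinates with other genes. All 7 genes of fatty acid synthesis lay below the protein-coding median. At least 2-fold lower were 3 of them, 2 on chromosome 11, where 12.3% of genes were lower, beside 3.39% of all protein-coding genes, and the list's median was -0.83, or -0.52 relative to genes of like level. Scd1, a desaturase on chromosome 19, had 10.8 RPKM in the null, 11.1 and 13.7 in the knockdowns and 34.6 in wild-type cells (-1.59), while Acly and Fasn, on chromosome 11 with 2 other members, had ratios of -1.10 and -1.01. The sterol synthesis list had 21 rows, Hmgcs1 taking 2 of them. In it 2 genes were at least 2-fold lower (beside 3.39% of all protein-coding genes). The list's median was -0.51, or -0.27 relative to genes of like level. Fdps, farnesyl diphosphate synthase on shared coordinates, had 39.4 and 119 RPKM in null and wild-type cells (-1.57), and Nsdhl, a later enzyme of the pathway, had a ratio of -1.07.

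RAD23B serves the proteasome, and genes of the proteasome and of protein folding read somewhat low. All 31 proteasome genes lay below the protein-coding median, at a list median of -0.57, but only Psmb3, a core subunit on chromosome 11, was 2-fold lower, at 145 RPKM in Rad23b-null cells, 178 and 166 in the knockdowns and 361 in wild-type cells (-1.31). These are abundant RNAs: relative to genes of like level outside chromosome 11 the median was -0.17. Without the 6 members on chromosome 11 the uncentred median was -0.52. Of 14 shuttle and ubiquitin adaptor genes none differed 2-fold (median -0.33). Vcp, the segregase that extracts ubiquitinated proteins, had 161 and 262 RPKM in null and wild-type cells (-0.71), and the ubiquilins Ubqln1, Ubqln4 and Ubqln2, shuttles like RAD23B, had ratios of -0.45, -0.25 and 0.09. Endoplasmic reticulum chaperones had a median of -0.60 over 19 genes, -0.33 relative to genes of like level. Of the 19, 2 were at least 2-fold lower (beside 3.39% of all protein-coding genes). Hspa5, the chaperone BiP, had 169 RPKM in the null, 163 and 154 in the knockdowns and 358 in wild-type cells (-1.08), and Manf had 62.9 and 133 RPKM in null and wild-type cells (-1.07). Herpud1, which takes part in degradation of membrane proteins, differed in direction at 28.7 and 14.5 RPKM (0.94). Among 19 cytosolic chaperone genes (median -0.56, or -0.16 at like level) Hspa8 had 2894 and 6691 RPKM in null and wild-type cells (-1.21) and Cct4, a chaperonin subunit on chromosome 11, 455 and 919 RPKM (-1.01). The heat-inducible Hspa1b and Hspa1a had low levels in each library, with 5.57 and 2.66 RPKM in null cells and 2.97 and 0.917 RPKM in wild-type cells. Stub1, the chaperone-bound ligase CHIP, read 731 RPKM in the null, 747 and 915 in the knockdowns and 52.6 in wild-type cells (3.77). Stub1 shares a listed locus with other genes, as do Vcp, Manf and Hspa1a.

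Of the nucleotide excision repair genes 0 of 22 reached 2-fold on RPKM + 1, with a median of -0.36, or -0.12 relative to genes of like level. Among all protein-coding genes 2.94% were higher and 3.39% lower, so a list of this size would hold few such genes in any case. Lig3, a DNA ligase on chromosome 11 with shared coordinates, came nearest at 15.7 RPKM in null and 32.2 RPKM in wild-type cells (-0.99, or 2.05-fold on RPKM alone). The damage verifier Xpa had 4.35 and 7.94 RPKM, and Ercc5, the nuclease XPG, was the highest member at 19.2 and 11.8 RPKM (0.66). Dyskerin complex genes and Abcf1, named as further coactivator partners of OCT4 and SOX2, were at a median of -0.55 over 7 genes, or -0.15 at like level. Nhp2, on chromosome 11 with shared coordinates, was at 144 RPKM in null and 351 RPKM in wild-type cells (-1.28), while Dkc1 had 189 and 278 RPKM.

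Signalling genes differed in direction within a list. Their counts stand beside 2.94% at least 2-fold higher and 3.39% lower among all protein-coding genes. In the BMP list 2 of 12 were at least 2-fold higher, Id1 and Bmp4; Bmp4, a ligand that acts with LIF in stem cells, had 16.1 RPKM in Rad23b-null cells, 12.6 and 10.9 in the knockdowns and 4.36 in wild-type cells (1.67), on shared coordinates. Id2 and Id3 had ratios of 0.93 and 0.53. Immediate early genes split, with 3 of 16 lower and 3 higher. Fos had 10.2 RPKM in the null, 8.35 and 8.28 in the knockdowns and 39.9 in wild-type cells (-1.87), Fosb 0.773 and 2.99 RPKM in null and wild-type cells (-1.17), and Egr1, a zinc finger factor induced by ERK signals, 23.4 and 60.6 RPKM (-1.34). On the higher side stood Myc, at 11.5 RPKM in the null, 10.9 and 9.71 in the knockdowns and 4.65 in wild-type cells (1.15), Fosl2 (1.14) and the feedback inhibitor Spry4 (1.10). Of 7 interferon response genes over the limit, of 20 listed, 3 were lower: Ifitm1, Ifitm3 (114 RPKM in null and 250 RPKM in wild-type cells) and Oas1a (0.289 and 2.26). Among 18 actin and adhesion genes, Acta2 (0.136 and 2.39 RPKM), Acta1 (0.735 and 3.43) and the intermediate filament gene Vim (86.3 and 189) were lower. Lmna, encoding lamin A and C, was higher at 34.3 RPKM in null and 15.3 RPKM in wild-type cells (1.12). Fosb, Oas1a, Acta2 and Acta1 passed the level limit through the wild-type library alone, so their direction follows from that filter. Egr1 and Acta1 share coordinates with other genes. Cell cycle genes differed 2-fold at Cdkn2a alone, the locus of p16 and ARF, with 9.88 and 3.53 RPKM (1.26).

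Chromatin regulators were largely level. The counts of this and the following lists stand beside 2.94% higher and 3.39% lower among all protein-coding genes. Of 29 Polycomb genes 2 were 2-fold higher and none lower, at a median of -0.10. Of the 29, 2 passed the level limit through the null library alone, Cbx8 among them. Phf19, a PRC2 accessory gene on shared coordinates, had 6.20 RPKM in the null, 6.45 and 4.36 in the knockdowns and 2.04 in wild-type cells (1.24). Cbx8, a chromodomain subunit, had 12.7, 1.16, 26.1 and 0.858 RPKM in the same order, with knockdown 1 beside the wild type. Of 14 DNA methylation genes only Dnmt3l, the cofactor of de novo methyltransferases, was 2-fold higher, at 393 RPKM in null, 471 and 449 in the knockdowns and 181 RPKM in wild-type cells (1.11, shared coordinates). In the Hox clusters 6 genes were over the limit, all through the null library alone, and 2 were 2-fold higher, among them Hoxd1 (1.71 RPKM in null and 0.179 RPKM in wild-type cells). Imprinted genes differed at Nnat, lower at 0.532 and 9.54 RPKM (-2.78), and Igf2, higher at 6.60 and 2.58 RPKM (1.09), both on shared coordinates, with 12 of 14 inside 2-fold. Ribosomal protein genes (82 over the limit) had a median of -0.33, or 0.05 relative to genes of like level, and Rpl39l alone was 2-fold lower. Of 37 histone genes, whose RNAs mostly lack poly-A tails, 30 had a ratio below 0 and 7 above. Their median was -0.33, or -0.58 relative to genes of like level, and 11 passed the level limit through the wild-type library alone and 2 through the null library alone. By 2-fold, Hist1h2ac was higher (3.01 RPKM in null and 0.215 RPKM in wild-type cells) and Hist1h3g lower (1.06 and 3.93). Among 4 metallothioneins, Mt1 had 372 and 580 RPKM in null and wild-type cells and Mt4 0.492 and 6.11 RPKM (-2.25). Nnat and Mt4 passed the level limit through the wild-type library alone, and Hist1h2ac through the null library alone. Transcripts of the mitochondrial genome were mixed, with 22 of 30 below 0 and 8 above. The 10 protein-coding genes had a median of -0.80, beside -0.35 in knockdown 1 and -0.43 in knockdown 2, and mt-Co1, a cytochrome oxidase subunit, had a ratio of -1.25. The ribosomal RNA mt-Rnr1 ran the other way at 291 RPKM in null and 173 RPKM in wild-type cells (0.75), and so did the tRNA mt-Tt at 3058 and 1627 RPKM (0.91). The tRNA mt-Tv was the lowest, with 89.9 RPKM in the null, 186 and 274 in the knockdowns and 819 in wild-type cells (-3.17).

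Short RNAs scattered widely and in both directions. Of 750 over the limit, 241 were at least 2-fold higher (32.1%) and 184 lower (24.5%) in Rad23b-null cells, with a median of 0.20. MicroRNA genes had 115 higher and 64 lower of 330, snoRNA genes 74 and 76 of 242, and snRNA genes 39 and 25 of 89. The knockdown libraries, both from Rad23b-/- cells, were 2-fold apart from each other for 34.2% of the microRNA and 37.2% of the snoRNA genes. These shares are not on like terms, since the level limit did not look at the knockdowns. Entries listed at 0 in both knockdowns count as alike. Poly-A libraries do not capture mature short RNAs by design. The highest ratio belonged to the entry mmu-mir-2134-4, at 552 RPKM in the null, 0.120 and 560 in the knockdowns and listed at 0 in wild-type cells. Snord110, which guides ribosomal RNA methylation, was listed at 493 RPKM in the null and at 0 in the other libraries, and so was AC126942.1 at 446 RPKM. At the low end AC107678.1 and AC158299.1 were listed at 0 in the null and both knockdowns and at 394 and 342 RPKM in wild-type cells, and SNORD18 at 0 in the null and knockdown 1, 170 RPKM in knockdown 2 and 215 in wild-type cells. Of the 425 short RNAs at least 2-fold apart (56.7%), the number with a p-value under 0.05 in the authors' deposited table was 0.

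Long noncoding RNAs and pseudogenes lay between the other classes. Of 1959 over the limit, 110 were at least 2-fold higher (5.62%) and 92 lower (4.70%), together 202 (10.3%), with a median of -0.22. The knockdowns, which the level limit did not look at, differed from each other 2-fold for 2.14% of them. LincRNAs had 22 higher and 11 lower of 358, and pseudogenes 68 and 70 of 1347. The 4 highest and 4 lowest were gene models or pseudogenes on coordinates shared with other genes. Gm8172 had 91.0 RPKM in the null, 106 and 99.5 in the knockdowns and 0.161 in wild-type cells (6.31), and Gm13341 had 369, 532, 512 and 4.02 RPKM in the same order (6.20). Gm14934 had 44.3 RPKM in null and 0.107 RPKM in wild-type cells (5.35). Rpl35a-ps3 had 69.2 RPKM in the null and 75.7 in knockdown 2 and was listed at 0 in knockdown 1 and in wild-type cells. At the low end Gm12816 had 0.281 RPKM in the null, 0.354 and 0.399 in the knockdowns and 38.03 in wild-type cells (-4.93), and Gm16106 had 0.236 and 11.6 RPKM in null and wild-type cells (-3.35). Gm13316 was listed at 0 in the null, with 43.2 and 45.8 RPKM in the knockdowns and 64.0 in wild-type cells, and Gm11702 had 74.2 RPKM in the null but 429 to 642 RPKM in the other libraries.

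A RAD23B region of wild-type cells lay at the start of 49.4% of the genes that were higher in the null, against 71.1% of the lower genes and 74.6% of genes less than 2-fold apart. RAD23B regions were those listed by the authors in both wild-type D3 replicates, 38822 of the 59768 regions of replicate 1, and a gene was counted if a region lay within 1 kb of its start. Among 7673 protein-coding genes with coordinates of their own, the count was 123 of 249 higher genes (exact 95% binomial interval 43.0 to 55.8%), 187 of 263 lower genes (65.2 to 76.5%) and 5343 of 7161 other genes (73.6 to 75.6%). Without chromosome 11 the shares were 47.9% for higher (41.4 to 54.4), 65.3% for lower (58.1 to 72.0) and 74.0% for other genes (73.0 to 75.1), so that the intervals of lower and other genes no longer overlapped. The intervals cover counting error only and take genes as separate. Regions are more frequent at expressed genes, and 104 of the 249 higher genes were below 1 RPKM in wild-type cells. Within that class the share was 31.7% (22.9 to 41.6) for higher genes and 51.7% (46.1 to 57.2) for genes under 2-fold apart. Genes of this class passed the level limit through the null library alone, and the groups differed in level inside it, with a median of 0.364 RPKM in wild-type cells for higher genes and 0.678 RPKM for the others. At 1 to 5 RPKM it was 59.2% (47.3 to 70.4) for higher, 45.9% (29.5 to 63.1) for lower and 64.3% (62.0 to 66.6) for other genes. At 5 to 20 RPKM the shares were 61.5% for higher, 62.7% for lower and 75.4% for other genes, with intervals of 47.0 to 74.7 for higher, 50.0 to 74.2 for lower and 73.5 to 77.1 for other genes. At 20 to 100 RPKM they were 73.3%, 77.7% and 82.8%, with overlapping intervals. Above 100 RPKM they were 2 of 2 higher genes, 84.6% of lower and 82.4% of other genes. Leaving out chromosome 11, the share at 1 to 5 RPKM was 41.2% of lower (24.6 to 59.3) and 63.5% of other genes (61.0 to 65.8). At 5 to 20 RPKM it was 58.6% (44.9 to 71.4) and 74.9% (73.0 to 76.8), and the intervals overlapped in the higher classes. Over all levels without that chromosome, lower genes had a wild-type median of 23.4 RPKM and other genes 13.4 RPKM. Rad23b's own start held a region (chr4:55362299-55363234, authors' fold of 2.56 over IgG), as did those of Klf4 (1.87), Prdm14 (2.84), Trh (2.61), Ifitm1 (2.82) and Lefty1 (3.37) among low genes and Id1 (2.35), Plaur (2.07), Myc (2.54) and Ddit4 (2.01) among high ones. No region lay at the starts of the high genes Taf7l, Krt19, Adm, Zscan4c and Zscan4f or of the low genes Plac8, Rpl39l, Rragb, Gm9805, Tuba3a, Fosb, Acta2 and Nsdhl. The regions come from another cell line, and no RAD23B map of Rad23b-null cells was used here.

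**Figure D5:**
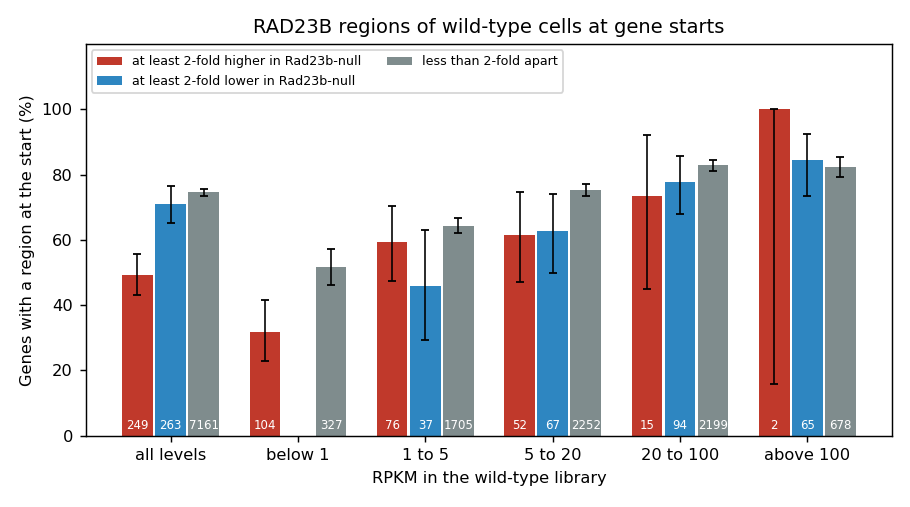
Bars give the percentage of protein-coding genes with coordinates of their own that had a RAD23B region of wild-type D3 cells within 1 kb of the start, by RPKM in wild-type JM8.N4 cells; error bars are exact 95% binomial intervals and the number in each bar is the number of genes. Shares of higher and other genes are 49.4% and 74.6% over all levels and 31.7% and 51.7% below 1 RPKM. Their intervals, which cover counting error only, overlap in each class from 1 RPKM upward. Genes below 1 RPKM in wild-type cells passed the level limit through the null library alone, so no lower gene can stand there. Higher genes of that class also had a lower wild-type median (0.364 RPKM) than the others (0.678 RPKM).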

How the data were processed

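Poly-A RNA libraries of Rad23b-null and wild-type JM8.N4 cells, 1 each, were sequenced as 50-base single-end reads, per the labels' protocols. TopHat2 2.0.6, Cufflinks 2.0.2, Cuffdiff, Partek and the build mm9 are named in the submitters' processing notes, without settings. The authors scaled the deposited RPKM pair by pair, so the wild-type library reads 1.026 and 1.017 times higher beside Rad23b-null than beside knockdown 1 and knockdown 2. Its printed RPKM are from the Rad23b-null pair, and each ratio over wild type uses its own pair. Ratios of null over knockdown and between the knockdowns cross pairs, so this scaling enters them. The deposited ratio (mutant to wild type, per the file headers) was not used. The deposited p-value has 3 decimals, no stated adjustment and rests on no replicates. The authors' fold per RAD23B region is a ratio to IgG, used only to describe regions. The heading of the replicate 2 list names replicate 1 libraries.

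Exactly 1 stands in 13841 wild-type and 12509 null values, where no 0 is listed, and was read as 0. The 72 rows with no gene name were left out, and 24 symbols turned into dates were restored by gene ID. Of 36586 genes 13068 share listed coordinates with others, and such a value may cover the merged locus. Not every such gene is marked in the text above. Antisense and overlapping genes cannot be told apart, since strand use is not stated. Change was the log2 ratio of RPKM + 1 among genes of at least 1 RPKM in either library, counted from 2-fold. Depth totals are unknown; step sizes put the libraries at 1.29 (null), 1.23 (knockdown 1) and 1.26 (knockdown 2) times the wild-type depth. With 1 library a group no test was run. The calculation was tested on simulated data. Python 3.11.15, numpy 2.4.6, pandas 2.3.3, scipy 1.17.1 and matplotlib 3.10.9 were used.

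The comparison and the 38 gene lists were chosen with earlier results of these data known. Genes named were the XPC complex, the 10 highest and 10 lowest ratios among protein-coding genes with coordinates of their own and at least 20 RPKM outside chromosome 11, the 6 highest and 6 lowest on it, up to 4 list members with the largest 2-fold difference, and the 4 highest and 4 lowest noncoding and 3 highest and 3 lowest short RNAs of at least 5 RPKM. Other list members are named as examples. A few genes that this rule names are not reported here. The alternatives tried concern the pseudocount, level limit, centring, fold, coordinates, the reading of exact 1 and leaving out chromosome 11. Xpc-null regions were not used.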

Additional observations from a re-analysis of the deposited data

How the results depend on the processing

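Each group has 1 library and read totals are unknown, so no value has an error. The counts of protein-coding genes at least 2-fold higher and lower were 362 and 418. With a pseudocount of 0.1 there were 750 higher and 600 lower, and with 5 there were 99 higher and 210 lower. A limit of 5 RPKM gave 211 higher, and 1 RPKM in both libraries (chosen after seeing the data, as was centring within level classes) 214 higher. Centring on the median gave 245 lower and genes with their own coordinates 263 lower. A fold of 1.5 gave 1106 higher and 1903 lower, and a fold of 3 gave 92 and 75. The share of higher among genes apart was 46.4%, against 32.0 to 68.4% over these settings. The 123 lower genes of chromosome 11 became 72 with a pseudocount of 5, 66 after centring, 63 after centring within level classes, 70 with own coordinates, 438 at 1.5-fold and 15 at 3-fold. The chromosome 11 median of -0.52 stayed below 0 in all 9 settings and was -0.12 with no level limit, where its difference from the other autosomes was also -0.12. The 202 noncoding genes apart became 369 and 68 with pseudocounts of 0.1 and 5, 113 at 5 RPKM, 101 with own coordinates, 560 at 1.5-fold and 69 at 3-fold; the 425 short RNAs became 157 with own coordinates. RAD23B shares for higher, lower and other genes were 61.0, 79.5 and 83.9% with replicate 1 regions alone and 70.3, 84.0 and 85.0% within 5 kb of the locus. Of 377 list medians recomputed, 321 moved by at most 0.20 (log2) and 55 by more. A change of sign was counted apart only for list medians of at least 0.5 in size, and 1 such median changed sign. This Hox median was -0.31 when exact 1 was kept as 1, and its cause lies in the genes then passing the limit with a value of 1. Smaller medians that changed sign are within the other counts. The ribosomal protein median, for example, went from -0.33 to 0.05 with centring within level classes. No paired analysis was possible because each group has 1 library. For the same reason no library could be left out.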
